A study of Mus musculus with 30 samples.

Results

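The genes described here drive or accompany cell division: 22 genes of S phase, 21 genes of mitosis and the steps leading into it, and 3 others that are often high in dividing cells (Hmgb3, Ezh2 and Stmn1). They were found by symbol in the probe annotation of a mouse expression array, and a probe set counted for a gene only when that gene was its single symbol. In this way 42 of the 46 genes were measured, by 55 of the 12422 probe sets tested on the array, which name 8251 genes in all. These were 20 of 22 S phase genes, 19 of 21 mitotic genes and the 3 others. Pole, Ccnb1 and Bub1b were not measured, and Tyms was read only by probe sets shared with its pseudogene. The 11 genes with several probe sets are given by the one with the highest mean, and the others are quoted where they differ.

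RNA from sorted CD4+ T cells was hybridised to 30 one-colour arrays. All cells came from NOD mice, a strain prone to autoimmune diabetes, that carry the BDC2.5 T cell receptor transgene, so most of their T cells share a receptor for an islet antigen. In the first set, pancreatic regulatory T cells (Treg, 3 arrays, sorted as CD4+CD25+CD69-) stand against effector T cells (Teff, 5 arrays, CD25 low or negative, CD69 positive or negative), all from mice given rat IgG. The second set holds pancreatic Treg (CD4+CD25+) and Teff (CD4+CD25-) cells of mice given antibody to ICOS, a costimulatory receptor (3 arrays each), and 2 more arrays of IgG Treg cells. The third holds CD4+CD25+ and CD4+CD25- cells of untreated mice, with 5 CD25+ and 3 CD25- arrays for mesenteric nodes and 3 and 3 for peripheral nodes. Where an age is given it is 26 days or 4 weeks. It is 4 weeks for the node arrays and for IgG Treg replicate 1 of the second set. It is 26 days for the other arrays of the second set, and none is given for the first. Whether replicates are different animals is not stated in the labels; the p-values therefore rest on a spread between arrays that may be technical, and the number of arrays limits the precision. In bulk samples fewer dividing cells and less RNA per dividing cell cannot be told apart.

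In S phase a cell copies its DNA. Cdc6 loads the Mcm helicase at origins, DNA polymerase alpha and primase (Pola1, Prim1) start new strands, Pcna, Fen1 and Lig1 extend and join them, and ribonucleotide reductase (Rrm1, Rrm2) and thymidine kinase (Tk1) supply nucleotides. Many of these genes are controlled by E2F factors. Mitotic genes peak later: Cdk1 with cyclins A2 and B2 drives entry, Aurka, Aurkb and Plk1 are mitotic kinases, Kif11 and Kif20a are motors of the spindle and of cell separation, Mad2l1 and Bub1 belong to the spindle checkpoint, and Cdc20 triggers separation of the chromosomes. Their promoters typically pair a CHR element with CCAAT boxes, through which the DREAM and MuvB complexes and the factor NF-Y act.

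Promoters of 3 genes of each class are printed here so that these letters can be seen beside the values that follow. Each line gives 160 bases before to 40 after the RefSeq start site, 5′ to 3′ on the gene's strand, on build GRCm38.p6. Capitals mark E2F letters (TTTCCCGC, TTTCGCGC, TTTGCCGC or TTTGGCGC), CHR letters (TTTGAA or TTCGAA) or a CCAAT box (CCAAT), each on either strand.
Cdc6 (chr11:98907991-98908190, plus strand): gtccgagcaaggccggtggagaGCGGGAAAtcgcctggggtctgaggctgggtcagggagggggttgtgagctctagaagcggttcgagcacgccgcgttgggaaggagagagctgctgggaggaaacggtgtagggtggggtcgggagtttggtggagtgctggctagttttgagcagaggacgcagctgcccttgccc
Mcm5 (chr8:75109349-75109548, plus strand): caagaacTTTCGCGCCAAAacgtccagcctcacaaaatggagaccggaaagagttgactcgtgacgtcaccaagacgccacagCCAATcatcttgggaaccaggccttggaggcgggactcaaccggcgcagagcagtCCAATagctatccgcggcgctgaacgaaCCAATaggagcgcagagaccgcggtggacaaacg
Pola1 (chrX:93632116-93632315, minus strand): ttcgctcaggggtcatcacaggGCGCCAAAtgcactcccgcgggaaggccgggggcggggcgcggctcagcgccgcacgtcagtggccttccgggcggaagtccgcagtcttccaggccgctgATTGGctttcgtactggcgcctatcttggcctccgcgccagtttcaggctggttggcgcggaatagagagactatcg
Cdk1 (chr10:69352873-69353072, minus strand): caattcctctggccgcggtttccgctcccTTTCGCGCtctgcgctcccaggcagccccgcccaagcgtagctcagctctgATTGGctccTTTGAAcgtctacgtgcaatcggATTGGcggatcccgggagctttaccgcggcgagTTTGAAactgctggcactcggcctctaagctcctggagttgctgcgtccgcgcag
Ccnb2 (chr9:70421515-70421714, minus strand): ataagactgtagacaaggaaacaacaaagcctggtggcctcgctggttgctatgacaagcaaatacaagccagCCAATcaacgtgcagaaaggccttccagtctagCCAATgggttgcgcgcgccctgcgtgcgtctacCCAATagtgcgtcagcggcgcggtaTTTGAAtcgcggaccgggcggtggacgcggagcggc
Kif11 (chr19:37376222-37376421, plus strand): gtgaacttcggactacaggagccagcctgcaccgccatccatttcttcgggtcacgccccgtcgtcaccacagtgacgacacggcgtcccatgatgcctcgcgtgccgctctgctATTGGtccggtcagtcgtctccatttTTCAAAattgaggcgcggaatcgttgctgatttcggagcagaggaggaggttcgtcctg
In Mcm5 a pair of E2F matches overlap, and Cdk1 holds matches to all 3 motifs. Over the stretch of 250 bases before to 50 after the start, 37 measured members had a promoter in the RefSeq table. E2F letters stood in 7 of 19 S phase genes (Cdc6, Lig1, Mcm3, Mcm5, Mcm6, Mcm7 and Pola1), in 1 of 16 mitotic genes (Cdk1), and in 2.26% of all 32851 promoters. A CHR together with a CCAAT box stood in 13 of 16 mitotic genes, in 3 of 19 S phase genes, and in 7.52% of all promoters. CHR letters alone were found in 19.2% of all promoters and CCAAT letters in 37.4%. These are matches of letters, not binding sites.

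Array medians were alike within each set and spanned at most 0.0972 on the log2 scale. Treg sort markers followed the titles. The 4 measured of 5 (Il2ra, Ctla4, Tnfrsf4, Tnfrsf18) were each higher in Treg than in Teff cells of IgG-treated pancreas and in CD25+ than in CD25- cells at both node sites. Foxp3 was not measured. A mesenteric CD25+ array (replicate 2) carries a CD25- source name, but its Il2ra was 5.50 log2 units, among values of 5.34 to 6.23 in the other CD25+ arrays and 4.08 to 4.11 in the CD25- arrays. The tissue entry of the peripheral node arrays says mesenteric, and here their titles decided the group. A pair of pancreatic arrays stood apart. On the array labelled anti-ICOS Treg replicate 3 the 4 markers averaged 6.12 log2 units, against 7.91 and 8.82 on the other anti-ICOS Treg arrays and 6.14 to 6.37 on the anti-ICOS Teff arrays. IgG Treg replicate 1 of the second set had the highest macrophage and dendritic cell marker mean of all pancreatic arrays, 6.09 log2 units against at most 5.44, and the highest red blood cell marker mean, 11.34 against at most 9.38. Results that rest on these arrays are given with and without them. IgG Treg replicate 3 of the first set and replicate 2 of the second share an array number and had r = 0.997 across probe sets, so they were counted as 1 sample in joint fits.

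The series is titled for its pancreatic comparison of Treg with Teff cells, and in IgG-treated mice the mitotic genes stood higher in Treg cells. Of 19 mitotic genes, 14 rose in Treg cells and none fell (limma, adjusted p under 0.05 over all probe sets). Over all probe sets 3.93% were called higher and 2.76% lower in Treg cells. Of 20 S phase genes 4 rose and none fell. The median log2 difference was 0.82 over mitotic genes and 0.41 over S phase genes, against 0.03 over all probe sets. All 19 mitotic differences were positive, and so were 17 of 20 in S phase. In 15 mitotic and 5 S phase genes every Treg array lay above every Teff array, which held for 8.53% of all probe sets.

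**Figure D1:**
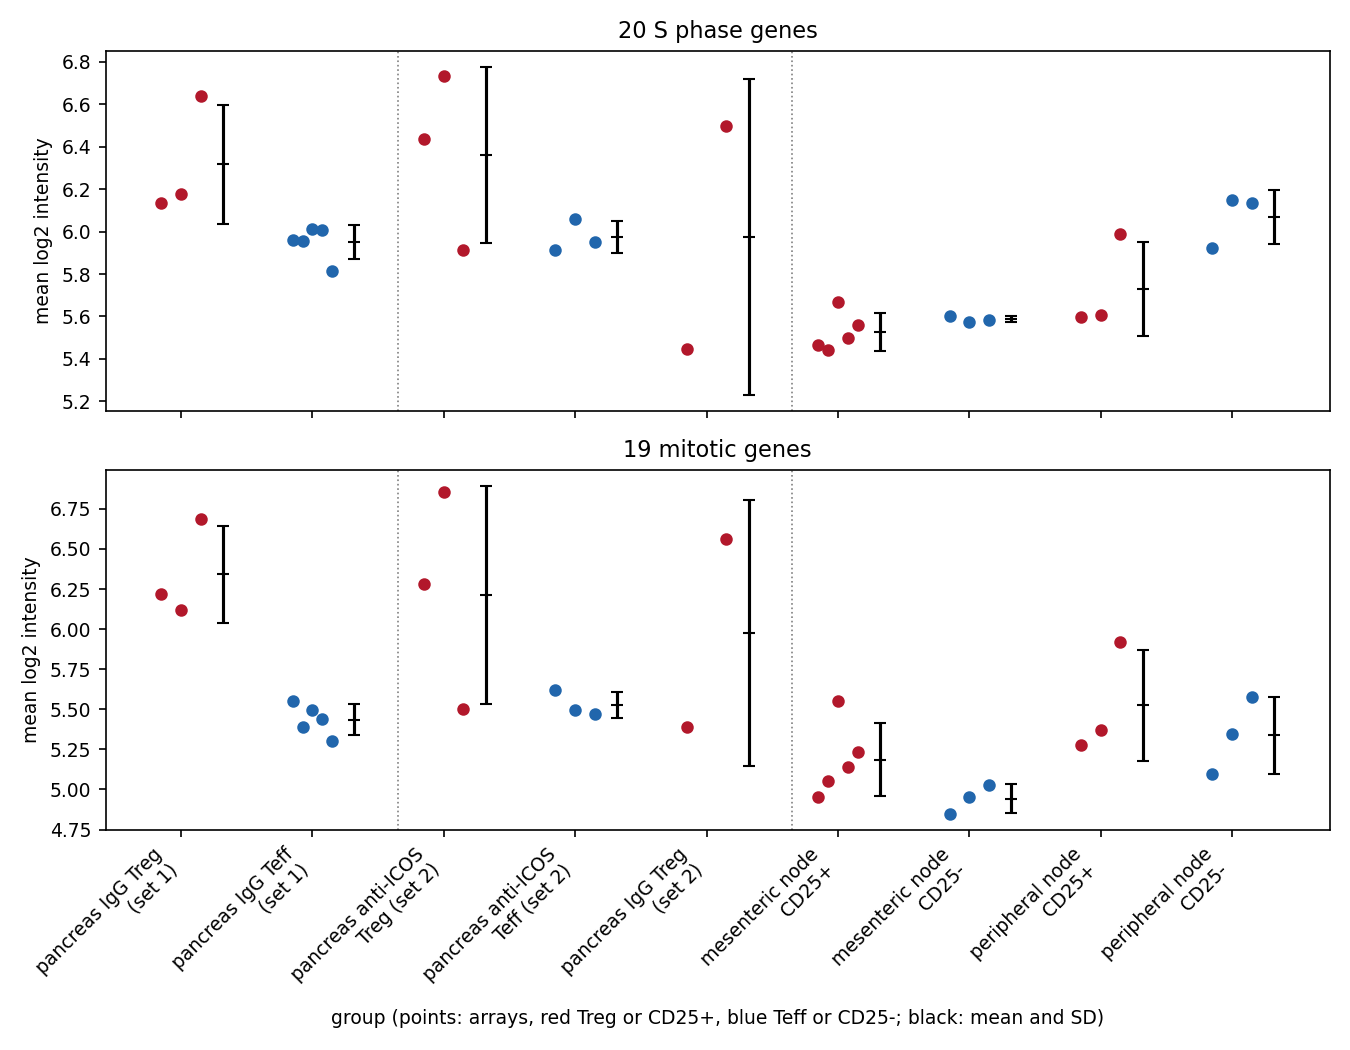
Mean log2 intensity of the 20 S phase genes (top) and the 19 mitotic genes (bottom) on each array, by group; red points are Treg or CD25+ arrays, blue points Teff or CD25- arrays, and black marks give the group mean and SD. Dotted lines part the 3 sets, which were processed separately. In the first set the mitotic mean lay between 6.12 and 6.69 on Treg arrays and between 5.30 and 5.55 on Teff arrays.

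Among mitotic genes, the proliferation marker Mki67 (Ki-67) differed most. Its log2 intensity was 7.15, 7.39 and 8.52 on Treg arrays, against 5.79, 5.26, 5.42, 5.53 and 4.98 on Teff arrays. The difference was 2.29 ± 0.28 (SE; adjusted p = 0.0014, limma), a 4.89-fold higher intensity in Treg cells. A dimmer Mki67 probe set gave 0.17 ± 0.14 and was not called.

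Cdk1, the kinase that starts mitosis, had the smallest p. It reached 6.75, 6.48 and 7.05 log2 units in Treg cells, against 5.52, 5.26, 5.27, 5.13 and 5.24 in Teff cells. The groups were far apart: 1.47 ± 0.13 (adjusted p = 0.000186, limma). Its partner cyclin B2 (Ccnb2) stood at 8.59, 7.92 and 8.55 in Treg cells, against 7.31, 7.02, 6.97, 7.01 and 6.71 in Teff cells, a difference of 1.35 ± 0.17. Cyclin A2 (Ccna2) stood at 7.24, 7.36 and 7.61 in Treg cells, against 6.82, 6.77, 6.62, 6.60 and 6.62 in Teff cells, a difference of 0.71 ± 0.11. In both cyclins the lowest Treg array lay above the highest Teff array.

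Kif20a, a motor needed for cytokinesis, had 6.44, 6.01 and 6.43 log2 units in Treg cells, against 5.45, 5.44, 5.23, 5.21 and 5.14 in Teff cells. Its difference was 1.00 ± 0.13, and its dimmer probe set gave 0.83 ± 0.11, also called. Hmgb2, a chromatin protein, had 6.81, 6.14 and 6.66 in Treg cells, against 5.71, 5.57, 5.88, 5.47 and 5.46 in Teff cells, a difference of 0.92 ± 0.16. The other mitotic genes that rose were Top2a, the topoisomerase that untangles chromosomes (1.42 ± 0.30), the spindle protein Tacc3 (1.38 ± 0.30), Kif11 (1.01 ± 0.21), Aurka (0.84 ± 0.16), Aurkb (0.67 ± 0.11), Cdc20 (0.66 ± 0.12), survivin (Birc5, 0.59 ± 0.11) and the centromeric histone Cenpa (0.50 ± 0.11). Of the 5 that missed the threshold, Mad2l1 had 0.82 ± 0.22 (adjusted p = 0.0524), Kpna2, a nuclear import receptor, 0.50, Bub1 0.49, the Cdk-binding protein Cks1b 0.41 and Plk1 0.16. Of 3 Plk1 probe sets a dimmer one was called (0.67 ± 0.10).

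The 4 S phase genes that rose serve nucleotide supply (Rrm2 and Tk1), origin loading (Cdc6) and strand extension (Pcna). Rrm2, the regulated subunit of ribonucleotide reductase, had 6.90, 7.04 and 7.71 log2 units in Treg cells, against 5.81, 5.94, 6.22, 5.66 and 5.11 in Teff cells. It differed by 1.47 ± 0.24 (adjusted p = 0.00665, limma), and the groups did not overlap. Cdc6, whose promoter carries E2F letters above, had 6.17, 6.72 and 7.39 in Treg cells, against 5.79, 5.79, 5.81, 5.78 and 5.28 in Teff cells, a difference of 1.07 ± 0.23. The sliding clamp Pcna had 9.14, 8.98 and 9.29 in Treg cells, against 8.58, 8.26, 8.91, 8.62 and 8.58 in Teff cells, a difference of 0.55 ± 0.14 (adjusted p = 0.0423, limma). The Pcna call was lost with the array run as a block, with the trend and robust options, and in 7 of 8 fits that left out an array. Tk1 had 7.48, 7.53 and 7.90 in Treg cells, against 7.28, 7.21, 6.98, 6.98 and 7.05 in Teff cells, a difference of 0.54 ± 0.12; its dimmer probe set gave 0.20 ± 0.13.

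Just short of the threshold for a call lay Rrm1, the large reductase subunit, with 7.08, 7.67 and 8.002 in Treg cells, against 6.91, 6.83, 6.95, 7.11 and 6.81 in Teff cells (0.66 ± 0.18, adjusted p = 0.0551). Slbp, which binds histone mRNA, had 5.78, 5.75 and 6.13 in Treg cells, against 5.54, 5.60, 5.54, 5.25 and 5.27 in Teff cells (0.45 ± 0.13, adjusted p = 0.0631). The helicase subunits were not called: Mcm3 had 0.49 ± 0.21, Mcm5 0.48 ± 0.28, Mcm2 0.36 ± 0.14, Mcm7 0.08 ± 0.23, Mcm6 -0.05 ± 0.08 and Mcm4 -0.36 ± 0.14. Neither were Lig1 (0.54 ± 0.18), the checkpoint kinase Chek1 (0.51 ± 0.20), Fen1 (0.23), Prim1 (0.22), cyclin E1 (Ccne1, 0.17), Cdc45 (0.11), Pola1 (0.01) and E2f1 (-0.18). The probe sets shared by Tyms and its pseudogene rose by 0.86 ± 0.13 and 1.14 ± 0.13. Of the 3 other genes, Stmn1 (stathmin, a microtubule regulator) rose by 0.89 ± 0.16, Ezh2 (a histone methyltransferase) had 0.15 ± 0.15, and Hmgb3 had -0.65 ± 0.23.

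**Figure D2:**
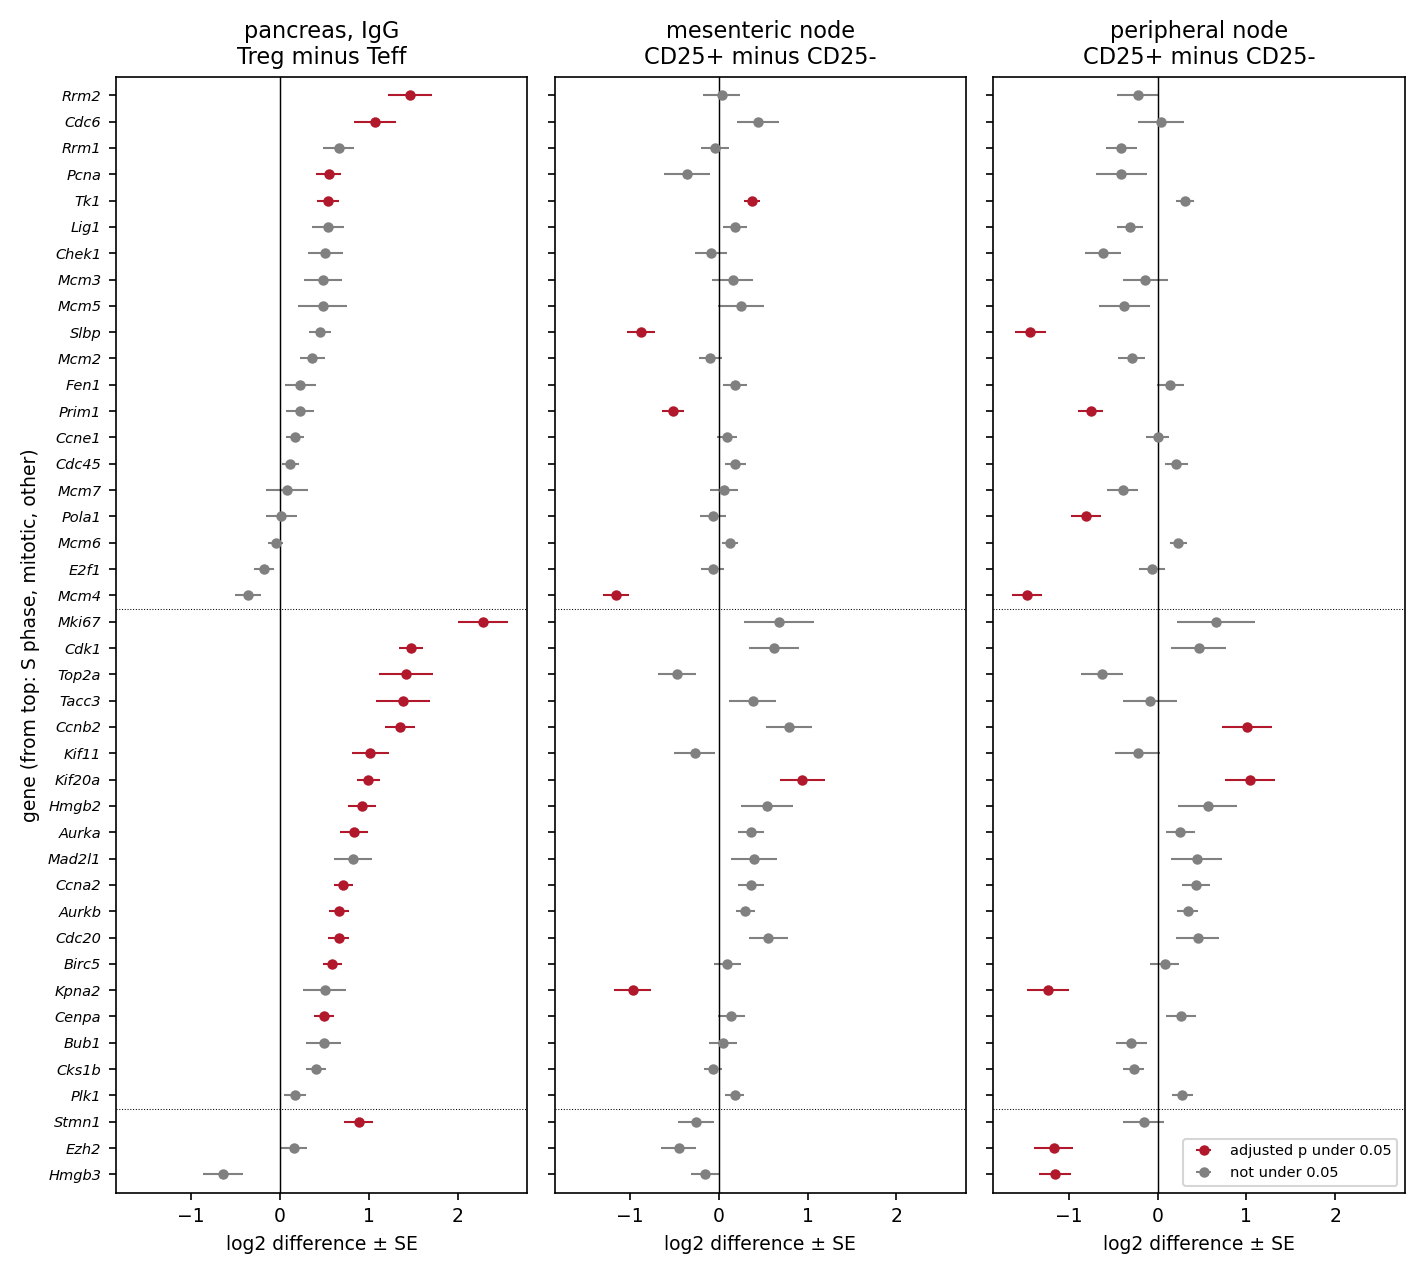
Log2 difference ± SE of each of the 42 genes in IgG-treated pancreas (Treg minus Teff, left), mesenteric nodes (CD25+ minus CD25-, middle) and peripheral nodes (right); red marks an adjusted p under 0.05. Dotted lines part S phase (top), mitotic (middle) and other genes (bottom). In the pancreas 14 mitotic genes are red and to the right of 0, while at both node sites Mcm4, Slbp, Prim1 and Kpna2 are red and to the left of it.

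Wider lists of the same pathways, chosen like the members with earlier results known, were counted in the same fit. Their counts stand beside the 3.93% higher and 2.76% lower of all probe sets. Of 34 measured further mitotic genes 12 rose, among them Pttg1 (securin, 1.07 ± 0.14), Kif22 (0.88 ± 0.12), Prc1 (1.08 ± 0.16), Cdkn3 (0.80 ± 0.13) and Cks2 (1.34 ± 0.23), and 1 fell, the condensin subunit Smc4 (-1.02 ± 0.14). Of 35 further S phase genes 4 rose, namely the clamp loader subunits Rfc2 (0.47) and Rfc3 (0.49), Gmnn (0.81) and Cdt1 (0.65), and 2 fell, Pole3 (-0.40) and the nucleoside kinase Dck (-0.79). Of 27 genes of G1 and of cell cycle inhibitors, the inhibitors Cdkn1c (0.42) and Cdkn2c (0.38) rose and the antiproliferative genes Btg1 (-0.68) and Btg2 (-0.66) fell, counts close to the share of all probe sets.

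The mitotic difference was positive in each run of array numbers that held both groups. In runs A, B and C, with 1 Treg array each and 2, 1 and 2 Teff arrays, the median mitotic difference was 0.72, 0.61 and 1.18, and the median S phase difference 0.11, 0.18 and 0.72, against -0.01, 0.13 and -0.004 over all probe sets. In run B the S phase median thus lay close to that of all probe sets, and in run A 12 of 20 S phase differences were positive. The differences of both classes were thus largest in run C. That run held Treg replicate 3, and also Teff replicate 5, the Teff array with the lowest mean of S phase genes. Without Treg replicate 3 the S phase median fell to 0.19. Without Teff replicate 5 only 10 mitotic genes and 1 S phase gene were called, and without Treg replicate 2 the S phase count was also 1. In all 8 fits that left out an array, 10 of the 14 mitotic genes and 1 of the 4 S phase genes (Rrm2) stayed called.

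Measures of the samples moved with the groups too. The log2 ratio of 3′ to 5′ actin signal, a sign of RNA length, was 3.69, 4.53 and 3.02 on Treg arrays, against 2.83, 2.41, 3.11, 2.54 and 2.38 on Teff arrays. With this ratio as a covariate the mitotic median was 1.10 and the S phase median 0.56, and 5 mitotic genes (Cdk1, Kif20a, Ccnb2, Cdc20 and Mki67) and 0 S phase genes were called, of 86 probe sets in all. Of 8 measured B cell markers 3 were called higher in Treg cells (Ighm, Cd79b and Blk), and the summed intensity of the list was 695.2 to 876.6 on Treg arrays and 484.9 to 551.6 on Teff arrays. The part of B cell RNA in the result was not tested.

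Under anti-ICOS the same direction was seen but no gene was called. The mitotic median of Treg minus Teff was 0.61 and the S phase median 0.38, and 19 of 19 mitotic and 18 of 20 S phase differences were positive. No probe set passed the threshold in limma (0 of 12422, 0%), also with its trend and robust options, while 209 had an unadjusted p under 0.05, 3 of them members. Cdk1 shows the spread. It was at 7.29, 7.35 and 5.58 log2 units in anti-ICOS Treg cells, against 5.98, 5.53 and 5.50 in anti-ICOS Teff cells. Mki67 was at 6.49, 8.44 and 6.22 in Treg cells, against 6.74, 5.69 and 5.66 in Teff cells. In both genes the lowest Treg value is that of the array labelled replicate 3, whose sort markers stood at the Teff level. Without that array the medians were 0.89 and 0.64, 12 probe sets and no member were called, and Ccnb2 (1.58 ± 0.28, adjusted p = 0.157), Aurkb (1.02 ± 0.18, adjusted p = 0.159) and Cdk1 (1.65 ± 0.32, adjusted p = 0.187) had the smallest p among members. With the array run as a block 1 member was called, among 15 of 12422 probe sets.

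Set against IgG, anti-ICOS Treg cells showed no called difference (0 of 12422 probe sets, 0%; 425 with an unadjusted p under 0.05, of which 1 a member). The medians were 0.21 in mitotic and 0.31 in S phase genes, and their direction hung on single arrays. Cdk1 had 7.29, 7.35 and 5.58 log2 units with anti-ICOS and 6.03 and 7.12 with IgG. Rrm2 had 7.37, 8.26 and 6.25 with anti-ICOS and 5.72 and 7.62 with IgG, so that both groups held a low and a high array. Without anti-ICOS replicate 3 the medians were 0.55 in mitotic and 0.48 in S phase genes. IgG replicate 1 differs from the other arrays of this set in its age label (4 weeks against 26 days) and in its array run. Without IgG replicate 1 the medians turned to -0.29 and -0.22, and without both arrays that stood apart, a setting chosen after seeing the data, they were 0.06 and 0.01. In the one run that held both treatments, with 1 array each, they were -0.94 and -0.64. The anti-ICOS array of that run was replicate 3, whose sort markers stood at the Teff level.

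Anti-ICOS Teff cells, whose gate also differed from that of the IgG cells, had no called difference from IgG Teff cells either (0 of 12422, 0%; 512 unadjusted, no member among them). All IgG Teff arrays were in the first set and all anti-ICOS Teff arrays in the second, so treatment, gate and set cannot be told apart. The medians were 0.28 in mitotic and 0.15 in S phase genes. On the values as deposited, where the median over all probe sets was -0.26 and 4390 probe sets were called, they were 0.10 and 0.047, and Mcm6 was called. The change of the Treg minus Teff difference with treatment was called for 0 of 12422 probe sets (0%; 327 unadjusted, 1 a member), with medians of -0.06 in mitotic and 0.03 in S phase genes. Without anti-ICOS Treg replicate 3 these medians were 0.22 and 0.28, without IgG Treg replicate 1 of the second set -0.23 and -0.05, and without both arrays, chosen after seeing the data, 0.08 and 0.13, with no probe set called in any of these fits. On values as deposited they were 0.08 and 0.17, against 0.10 over all probe sets. The anti-ICOS and IgG comparisons share arrays of the same joint fit.

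In the lymph nodes few members were called. The question at each site is how CD25+ cells, enriched for Treg cells, differ from CD25- cells. In mesenteric nodes 1 mitotic gene rose in CD25+ cells (Kif20a) and 1 fell (Kpna2), while 1 S phase gene rose (Tk1) and 3 fell (Mcm4, Slbp and Prim1). In peripheral nodes 2 mitotic genes rose (Kif20a and Ccnb2) and 1 fell (Kpna2), while 4 S phase genes fell (Mcm4, Slbp, Prim1 and Pola1) and none rose. Over all probe sets 4.66% were called higher and 7.53% lower at the mesenteric site, and 1.8% higher and 5.89% lower at the peripheral site. Over all 42 members, 2 rose and 4 fell in mesenteric CD25+ cells, near these shares. In peripheral nodes the count of mitotic genes that fell also lies near its share, while 2 of 19 mitotic genes rose and 4 of 20 S phase genes fell, above the shares of all probe sets. Medians in mesenteric and peripheral nodes were 0.36 and 0.28 over mitotic genes and 0.04 and -0.30 over S phase genes, against 0.04 and 0.05 over all probe sets.

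Mcm4, a helicase subunit, differed most. In mesenteric nodes it had 5.94, 6.15, 6.23, 5.65 and 5.58 log2 units in CD25+ cells, against 7.04, 7.09 and 7.07 in CD25- cells (-1.16 ± 0.15, adjusted p = 0.000329, limma). In peripheral nodes it had 6.07, 5.77 and 6.05 in CD25+ cells, against 7.37, 7.26 and 7.68 in CD25- cells (-1.47 ± 0.17, adjusted p = 0.00019, limma). At both sites every CD25+ array lay below every CD25- array.

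Slbp had 4.33, 4.18, 4.90, 4.35 and 4.42 in mesenteric CD25+ cells, against 5.55, 5.23 and 5.16 in CD25- cells, a difference of -0.88 ± 0.16. At the peripheral site it had 4.80, 4.26 and 4.63 in CD25+ cells, against 5.95, 5.92 and 6.11 in CD25- cells, a difference of -1.43 ± 0.18. Prim1, the catalytic primase subunit, was likewise lower without overlap, with differences of -0.51 ± 0.13 in mesenteric and -0.75 ± 0.14 in peripheral CD25+ cells. Its values were 3.86, 3.92, 4.19, 4.04 and 3.81 in mesenteric CD25+ cells, against 4.41, 4.51 and 4.52 in CD25- cells. In peripheral nodes they were 3.79, 4.10 and 4.36 in CD25+ cells, against 4.65, 4.99 and 4.88 in CD25- cells.

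Pola1, the catalytic subunit of polymerase alpha, had a mesenteric difference of -0.06 ± 0.15, with 4.70 to 4.75 log2 units in CD25+ cells and 4.75 to 4.86 in CD25- cells. In peripheral nodes it had 4.56, 4.77 and 5.28 in CD25+ cells, against 5.32, 5.79 and 5.92 in CD25- cells, a difference of -0.81 ± 0.17. Tk1 went the other way, with 6.60, 6.77, 6.83, 6.95 and 6.98 in mesenteric CD25+ cells, against 6.38, 6.47 and 6.51 in CD25- cells (0.37 ± 0.09). Its peripheral difference was 0.31 ± 0.10 (adjusted p = 0.0826), with 7.10, 6.97 and 7.04 in CD25+ cells, against 6.75, 6.63 and 6.80 in CD25- cells. Chek1 at the peripheral site had 6.44, 6.06 and 6.71 in CD25+ cells, against 6.80, 7.39 and 6.88 in CD25- cells (-0.62 ± 0.20, adjusted p = 0.0839). The other S phase genes, none of them called, ranged from -0.36 (Pcna) to 0.44 (Cdc6) in mesenteric nodes and from -0.41 (Rrm1 and Pcna) to 0.23 (Mcm6) in peripheral nodes.

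Among mitotic genes Kif20a kept the direction it had in the pancreas. In mesenteric nodes it had 5.34, 5.40, 5.90, 5.83 and 6.06 log2 units in CD25+ cells, against 4.56, 4.85 and 4.89 in CD25- cells (0.94 ± 0.25). In peripheral nodes it had 5.41, 6.22 and 6.79 in CD25+ cells, against 4.81, 5.25 and 5.23 in CD25- cells (1.04 ± 0.28). Its dimmer probe set was not called at either site (0.23 and 0.40), and the call on their mean was lost at both. The Tk1 call in mesenteric nodes was likewise lost on the mean of its probe sets. Ccnb2 had 6.82, 6.84, 7.77, 7.61 and 7.57 in mesenteric CD25+ cells, against 6.50, 6.59 and 6.50 in CD25- cells (0.79 ± 0.25, adjusted p = 0.0597). In peripheral nodes it had 7.33, 8.02 and 8.45 in CD25+ cells, against 6.63, 7.06 and 7.09 in CD25- cells (1.01 ± 0.28, adjusted p = 0.0465), and 9 of 14 fits that left out an array lost this call.

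Kpna2 was lower in CD25+ cells at both sites, with differences of -0.97 ± 0.21 and -1.24 ± 0.23. Its mesenteric values were 4.89, 4.90, 5.09, 4.58 and 4.60 in CD25+ cells, against 5.76, 6.21 and 5.37 in CD25- cells, and its peripheral values 5.34, 4.87 and 5.19 in CD25+ cells, against 5.89, 6.66 and 6.56 in CD25- cells. Aurkb (0.30 and 0.34), Ccna2 (0.36 and 0.43) and Mki67 (0.68 ± 0.39 and 0.66 ± 0.44) were positive at both sites without a call. Top2a was negative at both (-0.47 ± 0.21 and -0.63 ± 0.24). Of the 3 other genes, Ezh2 and Hmgb3 fell in peripheral CD25+ cells (-1.17 ± 0.22 and -1.16 ± 0.18), and at the mesenteric site they had -0.45 and -0.15. Stmn1 had -0.26 and -0.15.

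Calls that survived all 14 fits with an array left out were those of Mcm4 and Slbp in mesenteric nodes and of Mcm4, Slbp, Prim1, Pola1, Kpna2, Ezh2 and Hmgb3 in peripheral nodes. Control probe sets of the node arrays were read as stored in another order, and the node actin ratios rest on this reading. The actin ratio was 2.61 to 3.05 on mesenteric CD25+ arrays and 2.57 to 2.67 on CD25- arrays. At the peripheral site it was 2.76 to 3.30 on CD25+ arrays and 2.32 to 2.70 on CD25- arrays. With it as a covariate 3 members stayed called in mesenteric nodes (Mcm4, Slbp and Kpna2), among 1054 of 12422 probe sets. In peripheral nodes 2 stayed called (Mcm4 and Slbp), among 267 of 12422. B cell markers summed to 578.4 to 717.6 intensity units on mesenteric CD25+ arrays and 495.0 to 561.1 on CD25- arrays, with 2 of 8 called higher (Cd79b and Blk), and their part was not tested. Among 35 further S phase genes 5 fell and none rose at each site. Of all probe sets 7.53% fell at the mesenteric and 5.89% at the peripheral site. Cdc7, the kinase that activates the Mcm helicase, fell by 1.57 ± 0.18 and 1.36 ± 0.20, Rpa3, a single-strand binding subunit, by 0.72 ± 0.10 and 0.98 ± 0.11, Usp1 by 1.44 and 1.10 and the helicase Hells by 0.55 and 1.55 in mesenteric and peripheral CD25+ cells. Pole2 fell in mesenteric CD25+ cells only by call (-0.64 ± 0.14), and Cdc25a in peripheral ones (-0.78 ± 0.14). Of 34 further mitotic genes 2 rose in mesenteric CD25+ cells, Pttg1 (0.76 ± 0.23) and Kif22 (0.59), and 4 fell, the condensin subunit Smc2 (-1.25), the cohesin subunit Rad21 (-0.61), the motor Kif23 (-0.60) and the kinetochore protein Zwint (-0.53). In peripheral CD25+ cells Pttg1 rose (0.91 ± 0.26) and Zwint fell (-0.67). Of all probe sets 4.66% rose at the mesenteric and 1.8% at the peripheral site, and these mitotic counts lie near the shares of all probe sets.

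The Treg difference itself was then compared between pancreas and nodes in a joint fit, as the pancreatic difference minus the mean of both node sites. Taken with its sign, the Treg difference was more positive in the pancreas for 11 of 42 members and more negative for none. Over all probe sets 1.22% were called more positive and 0.853% more negative. Called were 5 S phase genes: Slbp (1.62 ± 0.19, adjusted p = 0.000243, limma), Rrm2 (1.58 ± 0.29), Rrm1 (0.90 ± 0.20), Prim1 (0.88 ± 0.20) and Mcm4 (0.88 ± 0.19). Called too were 4 mitotic genes, Top2a (1.98 ± 0.33, adjusted p = 0.00354), Kpna2 (1.60 ± 0.29), Kif11 (1.24 ± 0.30) and Cks1b (0.59 ± 0.13), and Stmn1 (1.00 ± 0.22) and Ezh2 (0.95 ± 0.21). The medians of this difference were 0.56 in S phase and 0.49 in mitotic genes, against -0.01 over all probe sets. Kif20a, called in the pancreas and at both node sites, had 0.01 ± 0.27 here, and Mki67 had 1.70 ± 0.47 (adjusted p = 0.0714). Of the 11 members, Rrm2, Top2a, Kif11 and Stmn1 were called higher in pancreatic Treg cells. Slbp, Prim1, Mcm4 and Kpna2 were instead called lower in CD25+ cells at both node sites, and Ezh2 in peripheral nodes. The Mcm4 difference was negative in the pancreas too, and less so than in the nodes.

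**Figure D3:**
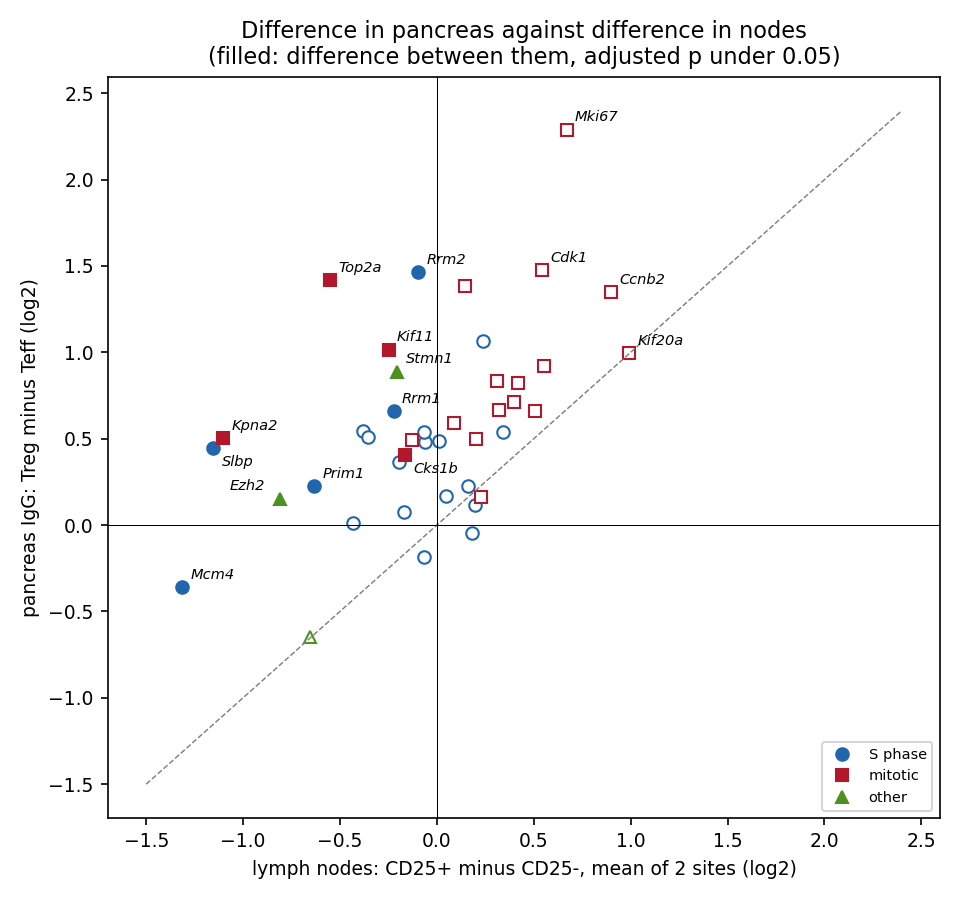
For each of the 42 genes, the log2 difference of Treg minus Teff cells in IgG-treated pancreas (vertical) against the mean CD25+ minus CD25- difference of both node sites (horizontal), from separate fits; the dashed line marks equal differences. Filled points are the 11 genes whose difference between pancreas and nodes had an adjusted p under 0.05 in the joint fit. All 11 lie above the line and left of 0 on the node axis, while Kif20a sits on the line.

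Top2a shows the contrast in single arrays. It had 6.29, 5.84 and 7.26 log2 units in pancreatic Treg cells, against 5.24, 4.76, 5.58, 4.99 and 4.66 in pancreatic Teff cells. In mesenteric nodes it had 4.79, 4.70, 5.18, 4.81 and 4.81 in CD25+ cells, against 5.29, 5.27 and 5.43 in CD25- cells, and in peripheral nodes 4.92, 5.03 and 5.85 in CD25+ cells, against 5.61, 5.68 and 6.39 in CD25- cells. Treg values were thus above Teff values in the pancreas without overlap, and mesenteric CD25+ values were below CD25- values without overlap. Slbp, Rrm2, Kpna2 and Top2a stayed called in all 22 fits that left out an array, and also against each node site alone. The calls of Rrm1 and Stmn1, each read by a further probe set too, were lost on the mean of the gene's probe sets. Without pancreatic Treg replicate 3 the count of members fell to 5. With the actin ratio as a covariate it fell to 4 (Slbp, Kpna2, Prim1 and Top2a), among 56 of 12422 probe sets. The pancreatic cells came from mice given IgG and were gated on CD69 as well, and their arrays were processed as a separate set. Organ, treatment, gate and array set thus cannot be told apart.

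Between the node sites, 3 of 42 members were called lower in mesenteric than in peripheral nodes in CD25- cells, and none in CD25+ cells. In CD25- cells all 42 measured members had a negative mesenteric minus peripheral difference, with medians of -0.43 in S phase and -0.39 in mitotic genes, against -0.01 over all probe sets. Members are not independent of each other, and they were measured on the same 6 arrays. In 27 of 42 members every mesenteric array lay below every peripheral array, which held for 5.41% of all probe sets. Called were Hmgb3 (-1.29 ± 0.18, adjusted p = 0.00346, limma), Chek1 (-1.06 ± 0.20) and Pola1 (-0.88 ± 0.17), where 0.242% of all probe sets were called lower. Hmgb3 had 7.48, 7.50 and 7.23 log2 units in mesenteric CD25- cells, against 8.53, 9.03 and 8.51 in peripheral CD25- cells. Chek1 had 6.03, 5.98 and 5.86 in mesenteric cells, against 6.80, 7.39 and 6.88 in peripheral cells. Cdc6 had -1.05 ± 0.26, Rrm2 -0.82 ± 0.23 and Mki67 -0.77 ± 0.44, none of them called.

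**Figure D4:**
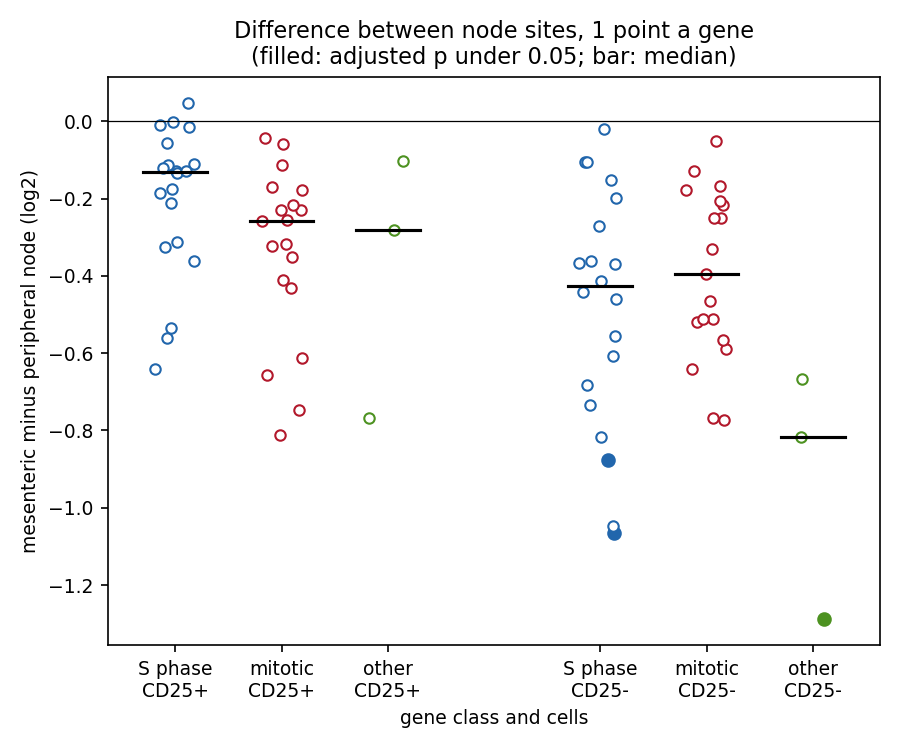
Log2 difference of mesenteric minus peripheral nodes for each gene, by class, in CD25+ cells (left) and CD25- cells (right); bars are medians and filled points have an adjusted p under 0.05. All CD25- points lie below 0, the filled ones being Chek1, Pola1 and Hmgb3.

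Hmgb3 kept its call in all 14 fits with an array left out, while Chek1 lost it in 7 and Pola1 in 8. Chek1 also lost its call with the actin ratio as a covariate (adjusted p = 0.0547, limma), and Pola1 with quantile normalization. Within array run D, with 2 CD25- arrays of each site, the S phase median was -0.38 and the mitotic median -0.36. In run E, with 1 CD25- array of each site, the medians were -0.69 and -0.25. There 2 of 20 S phase and 2 of 19 mitotic differences were positive. Sort markers moved with the site as well. Their 4-gene sum was 261.8 to 319.0 intensity units on mesenteric CD25- arrays and 353.1 to 464.6 on peripheral CD25- arrays, and the mesenteric minus peripheral difference of Ctla4 in CD25- cells was -1.71 ± 0.17. Whether cells at the margin of the CD25 gate bear on the difference was not tested.

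In CD25+ cells the same direction was seen in 41 of 42 members, with medians of -0.13 in S phase and -0.26 in mitotic genes, but no member was called, among 9 probe sets in all (0.0725%). Only Cks1b had every mesenteric array below every peripheral one, which held for 1.05% of all probe sets. The largest differences were those of Mad2l1 (-0.81 ± 0.26) and Stmn1 (-0.77 ± 0.21), with unadjusted p-values of 0.00697 and 0.00229 (limma). The difference between CD25+ and CD25- cells did not vary by site in any member by call, and 1 probe set in all was called (0.00805%).

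**Figure D5:**
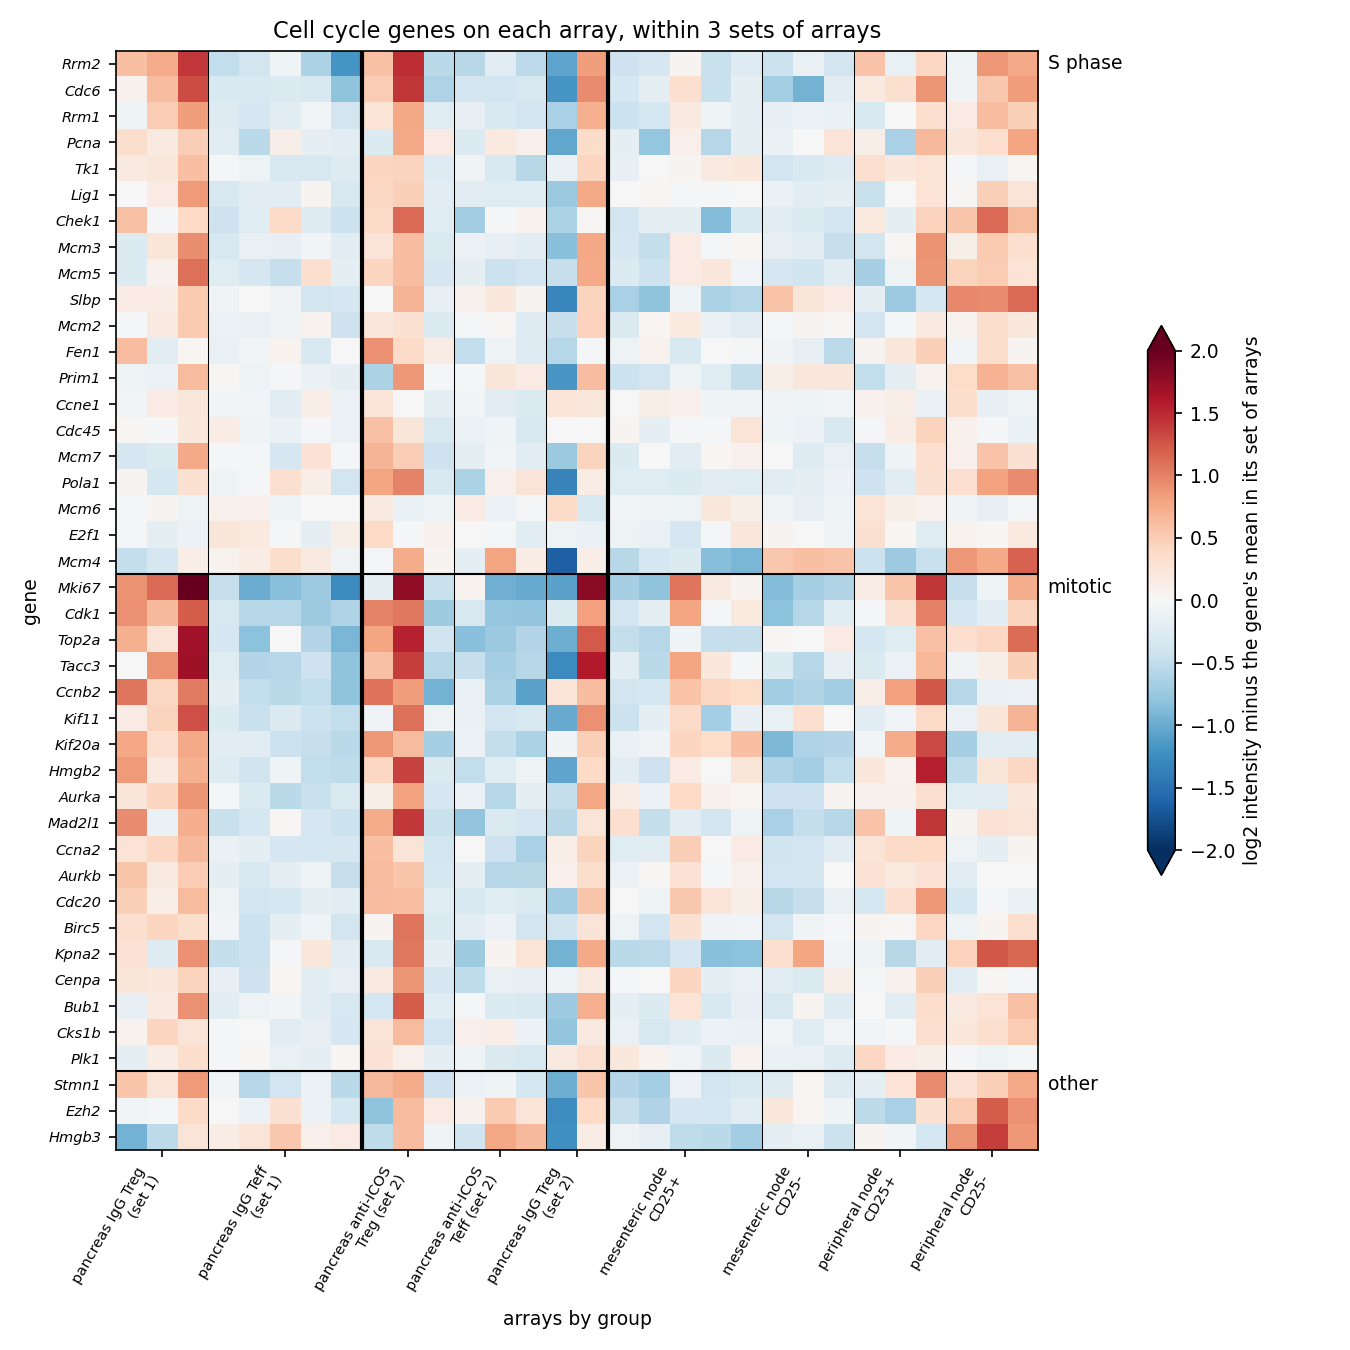
Each measured gene (rows, S phase above, then mitotic, then other genes, each sorted by the pancreatic IgG difference) on each of the 30 arrays (columns, by group). Colour gives log2 intensity minus the gene's mean over the arrays of its set, and thick lines part the 3 sets, so colours compare arrays within a set only. Mki67 to Kif20a are red on all or most IgG Treg arrays of the first set and blue on the Teff arrays. Mcm4 and Slbp are red on the CD25- arrays of both node sites, and Kpna2 on most of them.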

How the data were processed

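The deposited values are probe set intensities on a linear scale, made by the authors. The submitters' processing notes name RMA for the node set and the second pancreatic set, while for the first set no source used here names a method. Per the labels' protocols RNA was amplified in 2 rounds. The log2 of each deposited intensity was analysed with limma 3.58.1 (lmFit and eBayes, R 4.3.3, tables in Python 3.11.15) over 12422 probe sets without controls, with Benjamini-Hochberg adjustment and a threshold of 0.05. Each set was fitted alone as deposited. Comparisons across sets used joint quantile normalization, with the shared array averaged. No filter on low values was applied. For the actin ratio, control probe sets of the node arrays were renamed, being taken as stored in another order. Every fit of node arrays with that ratio as a covariate rests on this renaming. A gene was given by its probe set of highest mean.

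The members and all gene lists were chosen with earlier results of these data known. Per-array values are given for up to 6 S phase and 6 mitotic genes with the smallest p in the pancreas and in the nodes. Genes of the wider lists were named from those past the threshold. Anti-ICOS Treg and Teff arrays of the same replicate number had correlations of deviations of 0.589, 0.283 and 0.237. Arrays of unlike number were not compared, and replicates 2 and 3 lay in different array runs. The number is thus not taken as a pairing, and a replicate block changed no call of the anti-ICOS comparisons. Tested on simulated data for IgG-treated pancreas, with 200 of 12422 probe sets changed, the fit recovered 28.5% at a log2 change of 0.5, 86% at 1 and 99% at 2.

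Alternatives were quantile normalization or its omission, brighter probe sets, the mean of a gene's probe sets, limma's trend and robust options, the actin ratio as a covariate, array number runs or replicates as blocks, each node site alone and each array left out. Leaving out both pancreatic arrays that stood apart was added after seeing the data. Promoter sequences are RefSeq's, on GRCm38.p6.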

Additional observations from a re-analysis of the deposited data

Results flagged for a closer look

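Taken with its sign, the Treg minus Teff difference in IgG-treated pancreas was more positive than the mean CD25+ minus CD25- node difference for 11 genes. This was by the test of the difference between them. Of these genes, Rrm2, Top2a, Kif11 and Stmn1 were called higher in pancreatic Treg cells, while Mcm4 was negative in pancreas and nodes. The pancreatic difference minus the node difference was, on the log2 scale, 1.98 for Top2a, 1.62 for Slbp, 1.60 for Kpna2, 1.58 for Rrm2, 1.24 for Kif11, 1.00 for Stmn1, 0.95 for Ezh2, 0.90 for Rrm1, 0.88 for both Prim1 and Mcm4, and 0.59 for Cks1b.

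Single arrays lay far from the rest of their group in 8 of 88 gene and group combinations examined, where chance gives about 1 in 20. Teff replicate 5 of the IgG set was lowest for Cdc6 (5.28 log2 units, next 5.78) and in the mean of S phase genes (5.81, next 5.96). Teff replicate 3 was highest for Chek1 (6.65, next 6.04) and Mad2l1 (6.43, next 6.08), and Teff replicate 4 for Lig1 (6.08, next 5.80). Among mesenteric CD25+ arrays replicate 3 was highest for Top2a (5.18, next 4.81) and Bub1 (3.98, next 3.54), and replicate 4 lowest for Chek1 (5.38, next 5.89).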

How the results depend on the processing

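No result changed direction under a planned setting while called. For single genes, 564 of 646 values with an array left out and 266 of 320 under other settings kept their side of the threshold, and the others lost their call. Causes were not tested.

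With the actin ratio as a covariate the calls fell to 5 members in IgG-treated pancreas (0 S phase, 5 mitotic, mitotic median 1.10). They fell to 3 in mesenteric nodes (0 mitotic higher), 2 in peripheral nodes (2 S phase lower, 0 mitotic higher) and 4 for pancreas minus nodes (2 and 2). Over all 12422 probe sets this setting called 86, 1054, 267 and 56 in the same order. Against the mesenteric or the peripheral site alone 5 members were called each time (2 S phase, 2 mitotic). With array runs as a block 1 member was called for anti-ICOS Treg against Teff cells, among 15 of 12422 probe sets. The medians of anti-ICOS against IgG Treg cells with this block were -0.64 in S phase and -0.94 in mitotic genes. They rest on 1 array of each treatment, the anti-ICOS one being replicate 3. The mitotic median of Teff cells by treatment was 0.18 with this block, and 2 mitotic genes were higher in mesenteric CD25+ cells. Without joint normalization 1 member was called for Teff cells by treatment, among 4390 of 12422 probe sets (medians 0.047 and 0.10). Mitotic genes higher in mesenteric CD25+ cells were 2 with quantile normalization and with brighter probe sets, 0 on the mean of a gene's probe sets (1 in peripheral nodes), and 3 with a replicate block. Same-numbered node arrays did not pair in every pair, so the number is not taken as a pairing. The replicate block called 7 members among 832 of 12422 probe sets in mesenteric nodes, and 11 among 1213 in peripheral nodes. It changed no call of the anti-ICOS comparisons.

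Leaving out 1 array gave 12 to 23 members in IgG-treated pancreas (1 to 6 S phase, 10 to 16 mitotic, S phase median 0.19 to 0.46). It gave 2 to 9 members in mesenteric nodes (0 to 3 mitotic higher), 0 to 3 mitotic genes higher in peripheral nodes (S phase median -0.48 to -0.17), 1 to 4 members between sites in CD25- cells (S phase median -0.54 to -0.40), and 5 to 14 for pancreas minus nodes (2 to 6 S phase). The S phase median of anti-ICOS against IgG Treg cells ran from -0.22 to 1.01, and the mitotic one from -0.29 to 0.93. With 2 to 5 arrays a group, small differences were often out of reach.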

Other observations

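Outside the members, some genes of the wider lists also had Treg differences that, taken with their sign, differed between pancreas and nodes. Over all probe sets 1.22% were called more positive in the pancreas and 0.853% more negative. Of 35 wider S phase genes, 4 had a more positive difference in the pancreas by the limma test. Among them were the kinase Cdc7 (by 1.08 on the log2 scale) and the helicase Hells (1.00), and Pole3 had a more negative difference (-0.54). Of 34 wider mitotic genes 3 had a more positive difference there, Kif23 (1.04), Ttk (0.85) and Racgap1 (0.71), and none a more negative one. Between node sites Hells fell by 1.00 on the log2 scale in mesenteric against peripheral CD25- cells (adjusted p = 0.00614, limma).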
